A study of Mus musculus with 28 samples.

Results

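The GFP- thyroid cells of H2B-GFP mice were profiled at 3 ages, in 11 of the 28 libraries of the series. The members were taken by their labels: every thyroid library sorted as GFP negative, with 4 libraries at 3 months, 4 at 6 months and 3 at 9 months. All 3 groups share the H2B-GFP allele, the fresh sort by GFP, RNA isolation with the RNeasy Mini Kit and library preparation with QuantSeq, a method that reads messenger RNA near its 3′ end, so that a count does not depend on transcript length. The promoter that drives H2B-GFP, the time without labelling, the sex of the mice and the number of mice per library are not given in the sources used here. The matched GFP+ thyroid cells at the same ages (11 libraries) were used only to ask whether a change over age differed between the fractions. Replicates are not stated to be separate animals, so each p-value measures the spread between these samples, which may be technical.

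H2B-GFP is a fluorescent histone. A cell that divides shares it between its daughters, so the label fades with division, and a GFP- sort holds cells that have lost the label or never carried it. The thyroid consists of follicles, whose epithelium makes thyroid hormone on the scaffold protein thyroglobulin, together with calcitonin-producing C cells, a dense net of fenestrated capillaries and a fibrous stroma. The parathyroid glands, which secrete parathyroid hormone in answer to low blood calcium, lie on or in the thyroid of the mouse.

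Depth was low and uneven. A library held 27964 to 163544 reads in genes at 3 months, 4845 to 209091 at 6 months, and 5884 up to 132610 at 9 months. The 2 libraries under 10000 reads, 6-month replicate 2 and 9-month replicate 1, also stood apart in the share of reads outside genes, at 52.9% and 65.9%, against at most 31.2% in each of the other 9. A single read in 6-month replicate 2 is worth 206 CPM (a gene's reads as a share of the library's reads in genes, scaled to a common total), and a gene with 0 reads there could still lie at up to 619 CPM; in 9-month replicate 1 the values are 170.0 and 510 CPM. These floors, taken as 3 reads, cover counting error only. Levels below are CPM of each library, log2 fold changes are fitted with their standard error (SE) and are the later over the earlier age, and a gene is called where the adjusted p of edgeR's quasi-likelihood test is under 0.05 over all 1428 genes tested. A gene was tested if it had enough reads in at least 3 libraries, so it could enter through 1 age alone. The calls, signs and medians given for a list of genes may partly reflect that filter.

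The libraries carried follicular transcripts at every age. Tg, which encodes thyroglobulin, was at 6765, 4904, 4506 and 4614 CPM at 3 months, 7040, 1858, 3310 and 1993 CPM at 6 months, and 680, 5362 and 9032 CPM at 9 months. The ages overlapped, and the test over the 3 ages did not call Tg (adjusted p = 0.844, edgeR quasi-likelihood). Of 17 genes of hormone synthesis, 6 passed the filter on low counts and 0 were called in any pair of ages, among them the iodide-recycling gene Iyd. At most 2.1% of all genes were called in a pair, so 0 of 6 is near that share. Slc26a4 (pendrin), Duox1 and Kcne2 had 0 reads at every age. The receptor gene Tshr had 7 reads at 3 months, 6 at 6 months and 2 at 9 months, and was not tested. Pth, parathyroid hormone itself, had 5850 reads at 3 months, 21193 at 6 months and 6947 at 9 months, so the samples labelled as thyroid gland cells also held parathyroid RNA at every age. In such bulk samples, fewer cells of a type and less RNA per cell cannot be told apart.

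Across the 3 ages, 53 of 1428 genes were called (3.71%), and 225 had an unadjusted p under 0.05. The pairs of ages share their libraries, so their results are not independent of each other. Between 6 and 3 months 30 genes were called (2.1%), 20 higher and 10 lower at 6 months. Between 9 and 6 months 1 gene was called (0.07%), and between 9 and 3 months 7 (0.49%), all 7 higher at 9 months. At an unadjusted p under 0.05, the numbers were 202, 124 and 144. With DESeq2's size factors in place of TMM the numbers higher and lower in the same 3 pairs were 26 and 18, 13 and 9, and 16 and 5, and without ribosomal RNA rows 2 and 4 at 9 over 6 months and 12 and 4 at 9 over 3 months. The median log2 fold change of all genes tested was -0.04, -0.01 and -0.09 in the 3 pairs.

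The genes higher at 6 than at 3 months included parathyroid transcripts. Gata3, a transcription factor needed to form and maintain the parathyroid, was at 10.7, 122, 179 and 141 CPM at 3 months, 168, 206, 641 and 546 CPM at 6 months, and 0, 151 and 76.8 CPM at 9 months. Kl, which encodes the FGF23 co-receptor Klotho of parathyroid and kidney, was at 42.9, 257, 107 and 141 CPM at 3 months, 469, 0, 827 and 658 CPM at 6 months, and 0, 241 and 123 CPM at 9 months. By observed CPM, 3 of the 4 libraries at 6 months lay above every library of the other ages in both genes. The ages overlapped through the lowest 6-month library, replicate 1 for Gata3 and replicate 2 for Kl. The 206 CPM of Gata3 in 6-month replicate 2 is 1 read. The 0 reads of both genes in 9-month replicate 1 allow up to 510 CPM.

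The log2 fold change at 6 over 3 months was 2.27 ± 0.53 (SE) for Gata3 (adjusted p = 0.00382) and 2.16 ± 0.50 for Kl (adjusted p = 0.00308) by edgeR's quasi-likelihood test. In all, 3 of the 4 parathyroid genes tested were called higher, where 1.4% of all genes were, and the list's median was 2.0 against -0.04 for all genes; the others of its 7 genes were too low to test. The calls on Gata3 and Kl were lost without 3-month replicate 1 (log2 fold changes 1.84 and 1.84, adjusted p 0.121 and 0.0856) and without 6-month replicate 3 (1.86 and 1.8, adjusted p 0.146 and 0.115). Without the 2 libraries under 10000 reads, 4 of 4 members were called, with a median of 2.27. Of all 2152 genes tested in that fit, 65 were called, 37 of them higher.

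Pth was the most abundant messenger RNA of the list. It was at 6562, 21798, 16521 and 15523 CPM at 3 months, 25946, 18369, 67583 and 53704 CPM at 6 months, and 5099, 34741 and 17742 CPM at 9 months. Its levels at 6 months, 41401 ± 23138 CPM (SD, n = 4), were spread more widely than at 3 months, 15101 ± 6324 CPM (SD, n = 4). Pth passed the test over the 3 ages (adjusted p = 0.0480, edgeR), while the 6 over 3 month difference of 1.54 ± 0.47 (log2, SE) did not pass (adjusted p = 0.0536). Its promoter is shown because Gata3, which is known to act on it, differed beside it. Whether Gata3 had a part in the levels of Pth was not tested. The RefSeq window on GRCm38.p6, chr7:113388524-113388823 on the minus strand, runs from 250 bases before the start to 50 after it. In this window and those shown later, capitals mark the TATA box letters TATAA, the CCAAT box letters, the CACCC box letters and the GATA motif letters GATAA on either strand, those of the other strand appearing as their reverse complements.
Pth: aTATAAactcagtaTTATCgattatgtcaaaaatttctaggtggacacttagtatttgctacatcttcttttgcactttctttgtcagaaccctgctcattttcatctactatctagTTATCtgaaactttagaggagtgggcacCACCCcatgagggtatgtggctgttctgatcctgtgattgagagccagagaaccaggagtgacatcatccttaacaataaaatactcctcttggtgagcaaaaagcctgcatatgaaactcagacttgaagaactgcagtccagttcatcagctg

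The Pth window holds 1 TATAA at its far end, 1 CACCC, 2 GATAA on the opposite strand, and no CCAAT. Among 32851 windows of the same length, 24.9% hold TATAA, 57.5% CACCC, 25.4% GATAA and 37.4% CCAAT, so these letters are common and describe the sequence only.

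Neuroendocrine transcripts were mixed. Chga, the chromogranin A of secretory granules in parathyroid and C cells, was at 2520, 7564, 8261 and 5525 CPM at 3 months, 13208, 2064, 25123 and 24578 CPM at 6 months, and 1530, 9245 and 6667 CPM at 9 months. It passed the test over the 3 ages (adjusted p = 0.0256, edgeR) but not the 6 over 3 month comparison (1.57 ± 0.50, adjusted p = 0.0651). Calca, the calcitonin gene of C cells, had 1682 ± 543 CPM at 3 months (SD, n = 4), 2109 ± 994 CPM at 6 months (SD, n = 4) and 2001 ± 1330 CPM at 9 months (SD, n = 3), and was not called over age (adjusted p = 0.954). Of the 3 C cell genes tested, 0 were called in any pair, where at most 2.1% of all genes were.

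**Figure D1:**
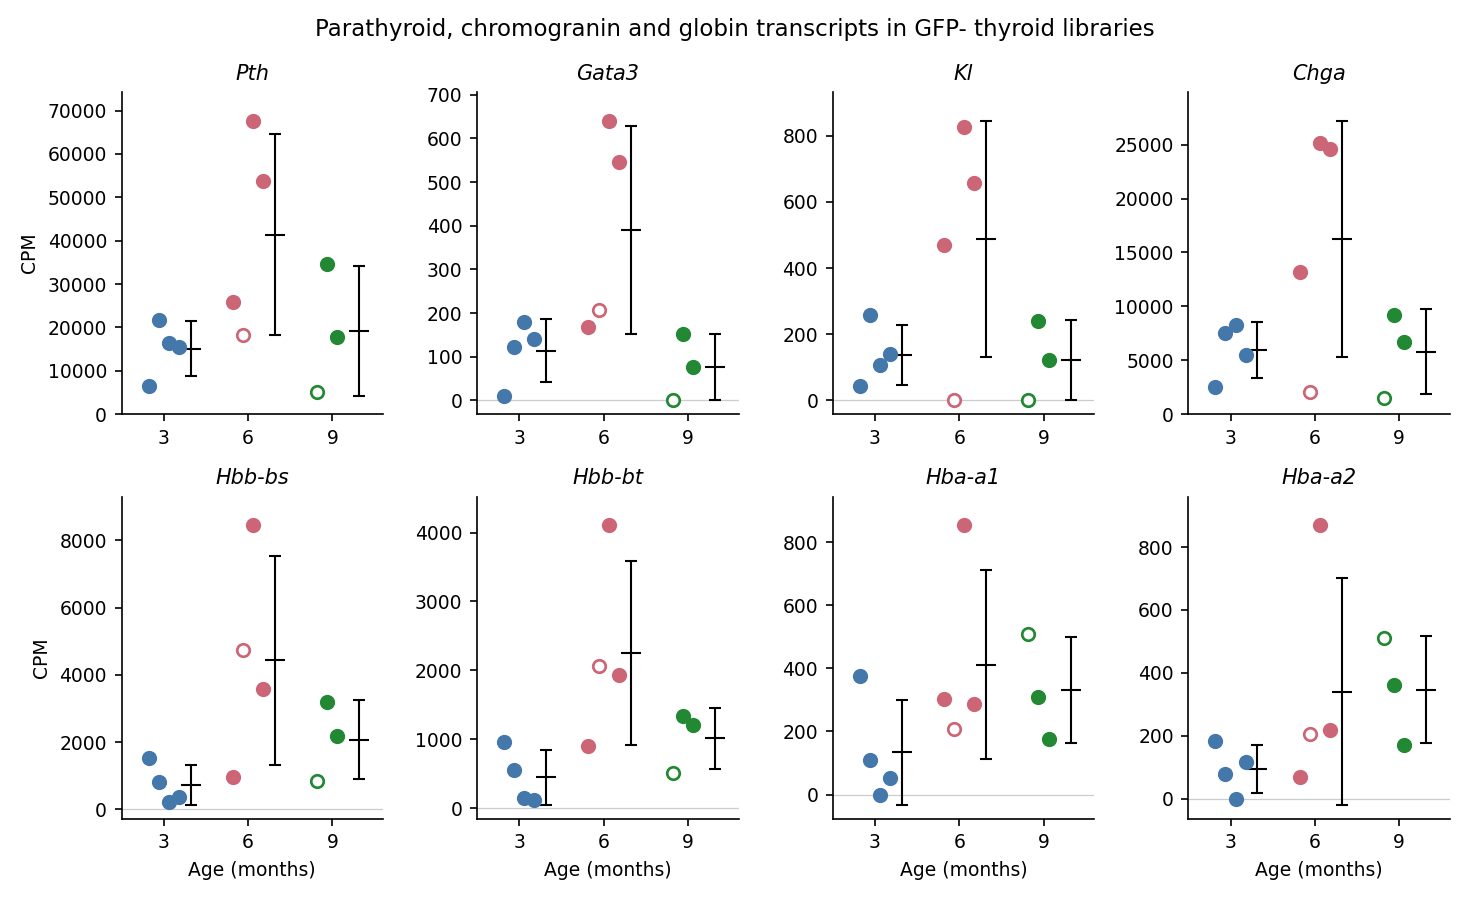
CPM of 3 parathyroid genes and Chga (upper row) and 4 globin genes (lower row) in each GFP- thyroid library by age in months; points are libraries, open points are the 2 libraries under 10000 reads, and black bars are the mean ± SD of a group. For Gata3 and Kl, 3 of the 4 libraries at 6 months lie above every library of the other ages by observed CPM. Their 0 reads in 9-month replicate 1 allow up to 510 CPM. For Hbb-bs 6-month replicate 3 is the highest at 8441 CPM.

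Globin transcripts were also higher at 6 than at 3 months. Hbb-bs and Hbb-bt, the adult beta globin genes of red cells, and Hba-a1 and Hba-a2, the alpha globin genes, are near-identical pairs, so reads may be split between copies and the separate values are uncertain. Hbb-bs was at 1522, 807, 215 and 359 CPM at 3 months, 972, 4747, 8441 and 3569 CPM at 6 months, and 850, 3182 and 2197 CPM at 9 months. Hbb-bt was at 965, 556, 143 and 128 CPM at 3 months, 905, 2064, 4103 and 1941 CPM at 6 months, and 510, 1335 and 1206 CPM at 9 months. In both genes 3 of the 4 libraries at 6 months were above all at 3 months, and 6-month replicate 1 was within the range of 3 months.

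The log2 fold change at 6 over 3 months was 2.55 ± 0.51 (SE) for Hbb-bs (adjusted p = 0.000910), 2.30 ± 0.49 for Hbb-bt (0.00216), 2.07 ± 0.52 for Hba-a2 (0.00815) and 1.72 ± 0.50 for Hba-a1 (0.0313), each an adjusted p of edgeR's quasi-likelihood test. All 4 globin genes tested, of 7 in the red cell list, were thus called higher, where 1.4% of all genes were. Their median was 2.18 against -0.04 for all genes. The 4 calls were lost without 6-month replicate 3, with log2 fold changes of 1.75 for Hbb-bs (adjusted p = 0.102), 1.60 for Hbb-bt (0.118), 0.67 for Hba-a2 (0.83) and 0.84 for Hba-a1 (0.668). They were also lost without the 2 libraries under 10000 reads, with a median of 2.22 and an adjusted p of 0.217 for Hbb-bs. All 4 were lost as well by limma voom, with only the compared ages and with no filter on low counts. The same held in the fit of all 22 thyroid libraries and with the replicate block. Further libraries that decided a call were 3-month replicate 4 for Hbb-bt (1.98, adjusted p = 0.0557), 3-month replicates 2 and 4 and 9-month replicate 3 for Hba-a2, and 3-month replicates 2 to 4 and 9-month replicates 2 and 3 for Hba-a1; without 3-month replicate 1 the value of Hba-a1 was 2.88. The promoters of the beta globin pair are shown because the pair moved together; the RefSeq windows on GRCm38.p6 are chr7:103827879-103828178 for Hbb-bs and chr7:103813874-103814173 for Hbb-bt, both on the minus strand.
Hbb-bs: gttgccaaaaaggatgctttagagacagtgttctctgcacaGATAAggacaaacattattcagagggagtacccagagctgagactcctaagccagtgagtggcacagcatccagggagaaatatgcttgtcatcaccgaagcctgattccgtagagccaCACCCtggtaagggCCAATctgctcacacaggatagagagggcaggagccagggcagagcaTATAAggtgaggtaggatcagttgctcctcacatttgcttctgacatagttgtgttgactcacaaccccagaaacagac
Hbb-bt: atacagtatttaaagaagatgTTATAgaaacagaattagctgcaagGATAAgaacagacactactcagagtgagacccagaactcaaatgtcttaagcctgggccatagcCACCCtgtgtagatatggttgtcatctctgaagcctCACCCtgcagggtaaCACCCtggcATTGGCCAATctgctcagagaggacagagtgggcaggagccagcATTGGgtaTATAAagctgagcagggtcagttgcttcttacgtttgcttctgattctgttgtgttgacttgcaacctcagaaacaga

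The 2 beta globin windows were 72.4% identical. Counted from the start, with the base before it at -1, each holds TATAA (at -29 in Hbb-bs and -28 in Hbb-bt), CCAAT (at -76 and -75) and CACCC (at -90 and -89) on its own strand in the same order, and GATAA further out (at -209 and -204). The Hbb-bt window holds 2 further CACCC, 2 CCAAT on the opposite strand and 1 TATAA on the opposite strand.

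Other genes higher at 6 than at 3 months belonged to no single list. Tspan6, a tetraspanin membrane protein, was at 161, 599, 250.3 and 218 CPM at 3 months, 872, 413, 1894 and 1698 CPM at 6 months, and 0, 520.3 and 384 CPM at 9 months; only 6-month replicate 2 fell within the range of 3 months. Its log2 fold change was 2.19 ± 0.48 (SE, adjusted p = 0.00216, edgeR). Spp1, the secreted phosphoprotein osteopontin, was at 118, 269, 71.5 and 167 CPM at 3 months, 235, 0, 1133 and 762 CPM at 6 months, and 0, 309.2 and 223 CPM at 9 months. Its high values at 6 months lay in replicates 3 and 4, with a fold change of 2.12 ± 0.48 (adjusted p = 0.00308). Epcam, an epithelial adhesion molecule, was at 129, 135, 71.5 and 154 CPM at 3 months. At 6 months it was at 268, 206, 584 and 494 CPM (1.88 ± 0.51, adjusted p = 0.0174, edgeR). The 2 ages did not overlap, but the 206 CPM of 6-month replicate 2 is 1 read. Epcam was the 1 gene called of 2 tested in the list of simple epithelial keratins and junctions, where 1.4% of all genes were called higher.

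The call on Tspan6 was lost without 3-month replicate 1 (1.97, adjusted p = 0.0576), and that on Spp1 without 6-month replicate 3 (1.52, adjusted p = 0.232). Both were also lost by limma voom. The call on Epcam was lost without any 1 of 3-month replicates 1, 2 and 4, 6-month replicates 3 and 4, and 9-month replicates 2 and 3, with adjusted p up to 0.279. The other named genes higher at 6 months were low in reads. Akr1c13, an aldo-keto reductase, had 70 reads at 6 months and 8 at 3 months (2.97 ± 0.76, adjusted p = 0.00936, edgeR). Lrrn1, a leucine-rich repeat membrane protein, had 69 and 10 reads (2.68, adjusted p = 0.0140), and the imprinted zinc finger gene Peg3 had 59 and 11 (2.55, adjusted p = 0.0293). Fbxw7, the substrate receptor of a ubiquitin ligase that targets cyclin E and Myc, had 113 and 26 reads (2.19, adjusted p = 0.0100), and the organic anion transporter gene Slco3a1 had 93 and 21 (2.18, adjusted p = 0.0174). Kansl1l had 197 and 40 reads (2.08, adjusted p = 0.00815).

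These calls rested on single libraries as well. That on Akr1c13 was lost without 3-month replicate 1 or 2 (adjusted p up to 0.0868), that on Lrrn1 without 3-month replicates 1 or 2 or 9-month replicates 2 or 3 (up to 0.12), and that on Peg3 also without 3-month replicate 4 (up to 0.121). For Fbxw7 the libraries were 3-month replicate 1, 6-month replicate 3 and 9-month replicate 3 (up to 0.212), for Kansl1l the same and 3-month replicate 2 (up to 0.279), and for Slco3a1 3-month replicates 1, 2 and 4, 6-month replicates 3 and 4, and 9-month replicates 2 and 3 (up to 0.284).

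The genes lower at 6 than at 3 months included endothelial transcripts. Pecam1, the junctional adhesion molecule CD31 of endothelium, was at 504, 373, 358 and 589.6 CPM at 3 months, 0, 0, 105 and 104 CPM at 6 months, and 510, 196 and 223 CPM at 9 months. By observed CPM every library at 6 months was below every library at 3 months and at 9 months. Pecam1 had 0 reads in 6-month replicate 2, which allow up to 619 CPM there. Its log2 fold change at 6 over 3 months was -2.29 ± 0.55 (SE, adjusted p = 0.00470, edgeR), and it passed in each of the 11 fits that left out 1 library (adjusted p up to 0.0472). The call was lost with no filter on low counts (adjusted p = 0.623), in the fit of all 22 thyroid libraries (adjusted p = 0.0778) and with the replicate block. These losses were general. Of the 30 genes called at 6 over 3 months, 0 were called with no filter and 0 with the block. In the fit of 22 libraries 2 of the 29 tested were called. The 9 over 6 month difference of 1.21 ± 0.61 did not pass (adjusted p = 0.573).

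Kdr, the main receptor of VEGF on endothelial cells, was at 1929.9, 1957, 1466 and 2705 CPM at 3 months, 1106, 206, 502 and 684 CPM at 6 months, and 0, 1078 and 684 CPM at 9 months. Every library at 6 and at 9 months was below every library at 3 months. Its fold change was -1.61 ± 0.48 (log2, SE) at 6 over 3 months (adjusted p = 0.0472, edgeR) and -1.57 ± 0.53 at 9 over 3 months, which did not pass (adjusted p = 0.124). The promoter of Kdr is shown as that of the most abundant gene called in the list; its RefSeq window is chr5:75978406-75978705 on the minus strand of GRCm38.p6, with 1 CACCC and none of the other 3 motifs.
Kdr: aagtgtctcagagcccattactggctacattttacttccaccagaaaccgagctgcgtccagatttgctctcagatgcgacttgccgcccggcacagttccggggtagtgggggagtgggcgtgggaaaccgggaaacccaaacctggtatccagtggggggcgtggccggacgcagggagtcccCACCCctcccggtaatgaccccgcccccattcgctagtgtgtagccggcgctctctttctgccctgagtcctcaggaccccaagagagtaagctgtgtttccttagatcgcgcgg

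Egfl7, a protein that endothelial cells secrete onto their matrix, was at 654, 409.7, 358 and 615 CPM at 3 months, 235, 0, 100.4 and 130.0 CPM at 6 months, and 849.8, 166 and 177 CPM at 9 months. Esam, an adhesion molecule of endothelial tight junctions, was at 375, 465, 572 and 423 CPM at 3 months, 235, 0, 62.2 and 139 CPM at 6 months, and 509.9, 143 and 154 CPM at 9 months. By observed CPM both were lower in every library at 6 months than in any at 3 months. The 0 reads in 6-month replicate 2 allow up to 619 CPM. At 9 months the high value was in replicate 1, the library of 5884 reads. Their fold changes at 6 over 3 months were -1.92 ± 0.53 for Egfl7 (adjusted p = 0.0190, edgeR) and -1.88 ± 0.55 for Esam (adjusted p = 0.0316).

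In all, 4 of the 19 endothelial genes tested (22 in the list) were called lower at 6 months, where 0.7% of all genes were, and 0 of the 19 had a positive fold change. A gene high at 3 months alone could pass the filter on low counts, so these counts may partly reflect the filter. The median of the 19 was -1.21 at 6 over 3 months, -0.03 at 9 over 6 months and -1.24 at 9 over 3 months, and 0 were called in the 2 later comparisons. Members that were not called between 6 and 3 months included Flt1, the other VEGF receptor (-1.21 ± 0.48, adjusted p = 0.185), Btnl9 (-1.32 ± 0.49, adjusted p = 0.137) and Exoc3l2 (-1.98 ± 0.72, adjusted p = 0.136). Across the 3 ages Btnl9 (adjusted p = 0.0206) and Exoc3l2 (adjusted p = 0.0462) passed. The summed level of the list was 9333 to 15042 CPM at 3 months, 3453 to 9990 CPM at 6 months and 4759 to 6568 CPM at 9 months. The parathyroid list, summed in the same way, was at 6701 to 22502, 18576 to 70500 and 5269 to 35729 CPM, and its part in the endothelial result was not tested.

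Of the endothelial calls, Egfl7 was lost without any 1 of 3-month replicates 1 and 4, 6-month replicates 3 and 4, and 9-month replicates 2 and 3 (adjusted p up to 0.211). Esam was lost without these or 3-month replicates 2 or 3 (up to 0.341), and Kdr without these 8 or 6-month replicate 2 (up to 0.231).

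Further genes lower at 6 months are known in the vessel wall but were outside the list. Arap3, a GTPase-activating protein of endothelial cells, was at 225, 153, 179 and 179.5 CPM at 3 months, 33.5, 0, 14.3 and 0 CPM at 6 months, and 170.0, 98.0 and 38.4 CPM at 9 months. The 6-month libraries held 4 reads against 65 at 3 months and did not overlap with them by observed CPM. The 0 reads in 6-month replicate 2 allow up to 619 CPM. The fitted fold change was -3.75 ± 0.84 (log2, SE, adjusted p = 0.00260, edgeR), and without 6-month replicate 4 the adjusted p was 0.0538. S1pr1, a receptor for sphingosine-1-phosphate that keeps endothelial junctions closed, was at 235, 206, 47.8 and 78.0 CPM at 6 months and 310.9, 453, 179 and 449 CPM at 3 months (-1.88 ± 0.57, adjusted p = 0.0472). Apold1, an immediate early gene of endothelium, was at 369, 0, 191 and 173 CPM at 6 months and 729, 1009, 358 and 987 CPM at 3 months (-1.84 ± 0.50, adjusted p = 0.0167). In both genes the 2 ages overlapped, through 6-month replicates 1 and 2 for S1pr1 and replicate 1 for Apold1, each above the lowest library at 3 months.

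Irf1, a transcription factor of the interferon response, was at 847, 673, 465 and 269 CPM at 3 months, 134, 0, 172 and 156 CPM at 6 months, and 0, 347 and 291.9 CPM at 9 months. By observed CPM the 6-month libraries were all below those at 3 months (-1.82 ± 0.51, adjusted p = 0.0210, edgeR). The 0 reads in 6-month replicate 2 allow up to 619 CPM. Irf1 was the 1 gene called of 5 tested in the interferon list of 26, where 0.7% of all genes were called lower. Adamts1, a secreted metalloprotease, had 301.7, 1651, 268 and 243 CPM at 6 months and 943.5, 1309, 894 and 1333 CPM at 3 months (-1.66 ± 0.50, adjusted p = 0.0472); its high value at 6 months rested on 8 reads in replicate 2. Hpcal1, a neuronal calcium sensor family member, had 1 read at 6 months and 40 at 3 months, a ratio of pooled read shares of 39.6 in favour of 3 months (95% interval 6.71 to 1603, counting error only).

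The calls on S1pr1 and Apold1 were lost without any 1 of 3-month replicates 1, 2 and 4, 6-month replicates 3 and 4, and 9-month replicates 2 and 3 (adjusted p up to 0.483 and 0.12). Irf1 was lost without the same libraries other than 3-month replicate 4 (up to 0.235), Hpcal1 without 9-month replicate 2 or 3 (up to 0.0684), and Adamts1 in 9 of the 11 fits that left out 1 library, those without 6-month replicate 2 and 9-month replicate 1 excepted (up to 0.271). Taking all genes, the count called between 6 and 3 months was 4 without 6-month replicate 3, 8 without 3-month replicate 1, 11 without 9-month replicate 3, 13 without 3-month replicate 2 or 6-month replicate 4, 16 without 9-month replicate 2, 17 without 3-month replicate 4 and 47 without 6-month replicate 1, in place of 30. The count over the 3 ages was 11 without 9-month replicate 2 or 3, 12 without 6-month replicate 3, 21 without 6-month replicate 4, 28, 34 and 31 without 3-month replicates 1, 2 and 4, and 85 and 86 without 9-month replicate 1 and 6-month replicate 1, in place of 53.

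**Figure D2:**
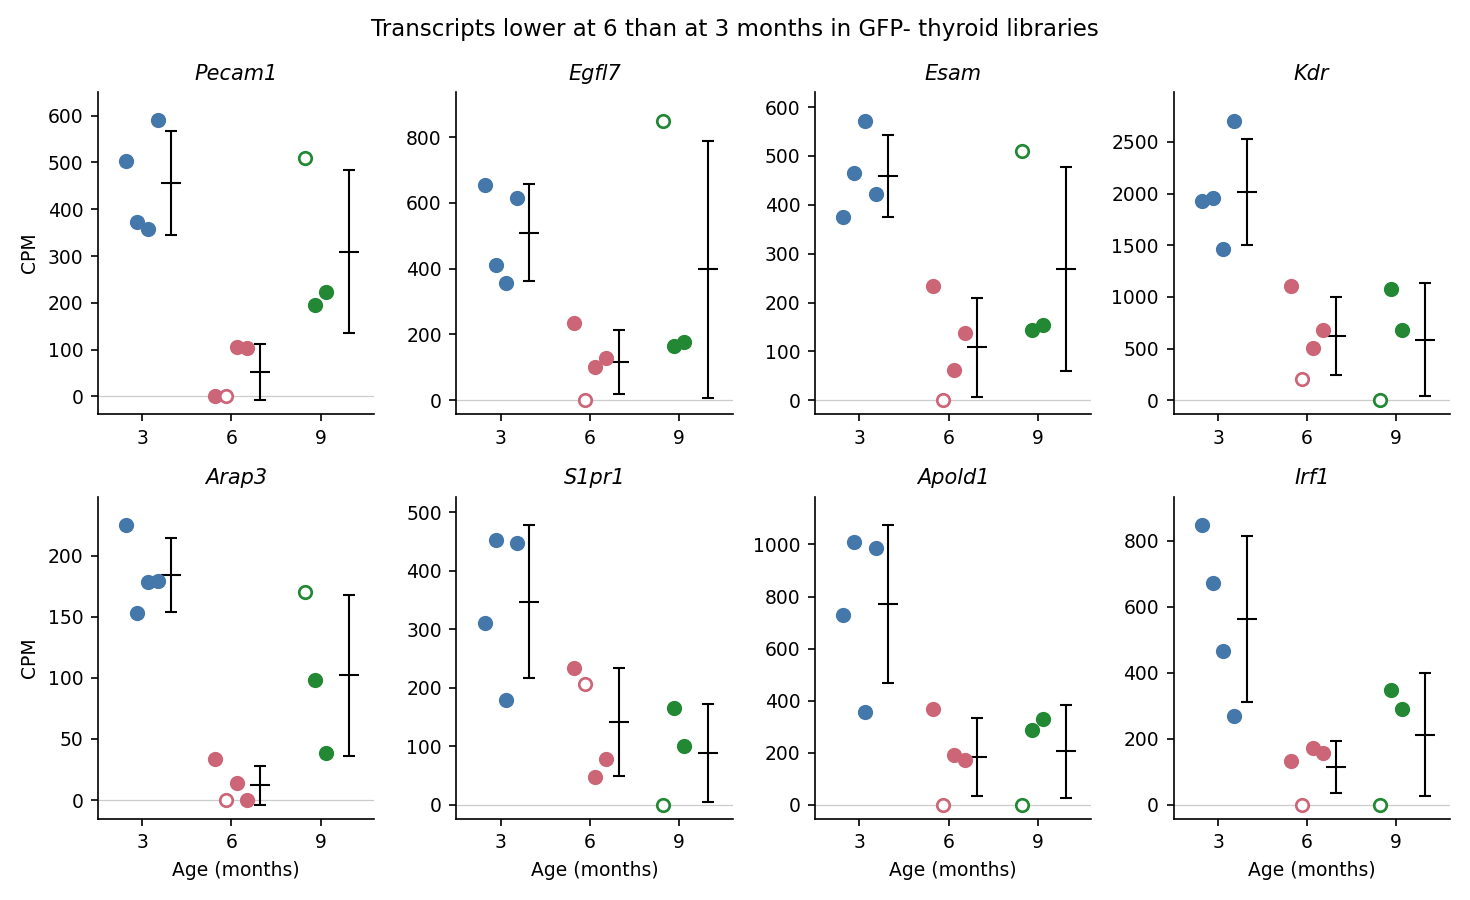
CPM of 8 genes called lower at 6 than at 3 months in each GFP- thyroid library by age in months; points are libraries, open points are the 2 libraries under 10000 reads, and black bars are the mean ± SD of a group. For Pecam1, Egfl7, Esam, Kdr, Arap3 and Irf1 the 6-month libraries all lie below those at 3 months by observed CPM. For all of these but Kdr, 0 reads in 6-month replicate 2 allow up to 619 CPM.

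At 9 months the genes higher than at 3 months included those of connective tissue. Dcn, decorin, a small proteoglycan that coats collagen fibrils, was at 1040.0, 1192, 608 and 820.4 CPM at 3 months, 1810.2, 3715, 933 and 840.3 CPM at 6 months, and 2209, 4472 and 6098 CPM at 9 months. Every library at 9 months was above every library at 3 months, and the 6-month libraries spanned the gap between them. Its fold change at 9 over 3 months was 2.14 ± 0.52 (log2, SE, adjusted p = 0.0208, edgeR). Col6a2, a chain of the beaded-filament collagen VI, was at 21.4, 36.7, 0 and 38.5 CPM at 3 months, 67.0, 206, 9.57 and 60.6 CPM at 6 months, and 170.0, 234 and 261 CPM at 9 months. The ages 3 and 9 months again did not overlap (2.93 ± 0.73, adjusted p = 0.0208, edgeR), but the 170.0 CPM of 9-month replicate 1 is 1 read.

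Col1a2, a chain of the fibrillar collagen I, was at 161, 165, 107 and 243.5 CPM at 3 months, 436, 413, 115 and 139 CPM at 6 months, and 0, 498 and 1075 CPM at 9 months. The 2 deep libraries at 9 months were above all at 3 months, and replicate 1 held no read (1.88 ± 0.51, adjusted p = 0.0494, edgeR). Col1a1, the other collagen I chain, had 17, 20 and 35 reads at 3, 6 and 9 months and was too low to test. The Col1a2 promoter is shown for the collagen genes called; its RefSeq window is chr6:4505368-4505667 on the plus strand of GRCm38.p6, with 2 CCAAT and 2 CACCC counted on both strands, and neither TATAA nor GATAA.
Col1a2: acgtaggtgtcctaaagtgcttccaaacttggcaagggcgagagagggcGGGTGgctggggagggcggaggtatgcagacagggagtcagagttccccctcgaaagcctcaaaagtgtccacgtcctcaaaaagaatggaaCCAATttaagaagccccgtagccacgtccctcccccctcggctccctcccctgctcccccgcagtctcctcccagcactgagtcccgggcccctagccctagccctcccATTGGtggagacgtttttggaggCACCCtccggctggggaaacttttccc

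In all, 3 of the 15 fibroblast genes tested (24 in the list) were called higher at 9 than at 3 months, where 0.49% of all genes were called higher, and 15 of 15 had a positive fold change. A gene high at 9 months alone could pass the filter on low counts, so these counts and the medians may partly reflect the filter. The median of the 15 was 0.31 at 6 over 3 months, 1.60 at 9 over 6 months and 1.85 at 9 over 3 months, with 0 called in the first and the second of these. Members short of the threshold at 9 over 3 months included Gsn, the actin-severing protein gelsolin (1.73 ± 0.49, adjusted p = 0.0544), the lipid transporter gene Abca8a (1.85 ± 0.56, adjusted p = 0.0681) and Fbn1, fibrillin of the elastic microfibrils (1.77 ± 0.70, adjusted p = 0.249). The summed level of the list was 1895 to 3729.9 CPM at 3 months, 2315 to 8875 CPM at 6 months and 4419 to 14009 CPM at 9 months, so the 9-month libraries were above all those at 3 months. The thyroid hormone list was at 5149 to 7752, 2495 to 8112 and 1189.7 to 10115 CPM at the 3 ages.

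Outside the list, Serping1, the C1 inhibitor of the complement cascade, was at 0, 79.5, 0 and 25.6 CPM at 3 months, 33.5, 1032, 33.5 and 26.0 CPM at 6 months, and 170.0, 219 and 399 CPM at 9 months (2.97 ± 0.66 at 9 over 3 months, adjusted p = 0.00983, edgeR). Lrp1, an endocytic receptor for proteases and apolipoproteins, was at 32.2, 85.6, 0 and 25.6 CPM at 3 months, 168, 206, 43.0 and 26.0 CPM at 6 months, and 339.9, 226 and 361 CPM at 9 months (2.6 ± 0.64, adjusted p = 0.0208). In both genes the 9-month libraries were all above those at 3 months, but the 170.0 CPM of Serping1 in 9-month replicate 1 is 1 read. The 339.9 CPM of Lrp1 in that library also rests on few reads. Cxcl1, a chemokine that attracts neutrophils, was at 172, 165, 35.8 and 167 CPM at 3 months, 235, 413, 163 and 95.3 CPM at 6 months, and 170.0, 664 and 729.6 CPM at 9 months (1.98 ± 0.52, adjusted p = 0.0373), with replicate 1 at 9 months inside the range of 3 months. It was the 1 gene called of 5 tested in the inflammation list, where 0.49% of all genes were called higher. Myoc, the secreted glycoprotein myocilin, had 41 reads at 9 months and 2 at 3 months, a ratio of pooled read shares of 27.7 (95% interval 7.19 to 236, counting error only).

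Each of the 7 calls at 9 over 3 months was lost without 3-month replicate 1 and without 9-month replicates 2 and 3; 3-month replicate 4 also decided Dcn, Lrp1, Col6a2, Col1a2 and Cxcl1, 3-month replicate 2 decided Col6a2, Col1a2, Cxcl1 and Myoc, and 6-month replicate 4 decided Col1a2, Cxcl1 and Myoc. Without 9-month replicate 3 the fold change of Dcn was 1.61 (adjusted p = 0.751), that of Col6a2 2.64 (0.751), that of Serping1 2.36 (0.751) and that of Col1a2 0.94 (0.996). Without 3-month replicate 1 the adjusted p was 0.0951 for Dcn, Col6a2 and Serping1, and without 3-month replicate 2 the fold change of Serping1 was 4.57. The number of genes called was 0 without 3-month replicate 1 or 9-month replicate 2, 2 without 9-month replicate 3, 4 without 3-month replicate 4 or 6-month replicate 4, 15 without 6-month replicate 3, and 21, 22, 28 and 31 without 3-month replicate 3, 6-month replicate 2, 9-month replicate 1 and 6-month replicate 1, in place of 7. Without the 2 libraries under 10000 reads, 34 of all 2152 genes tested were called, 28 higher and 6 lower, and 7 of 17 fibroblast genes tested were called higher (median 1.99).

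**Figure D3:**
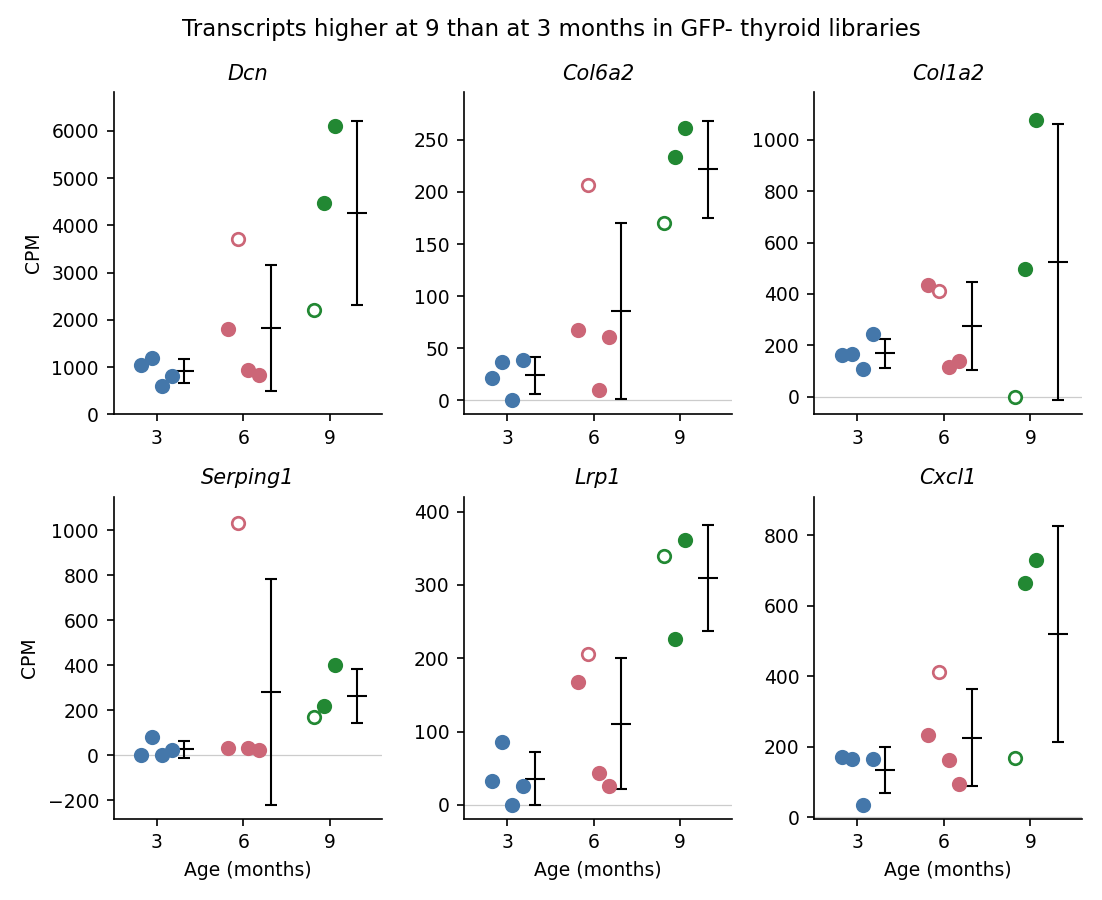
CPM of 6 genes called higher at 9 than at 3 months in each GFP- thyroid library by age in months; points are libraries, open points are the 2 libraries under 10000 reads, and black bars are the mean ± SD of a group. For Dcn, Col6a2, Serping1 and Lrp1 the 9-month libraries all lie above those at 3 months. For Col6a2 and Serping1 the point of 9-month replicate 1 is 1 read. The single high point of Serping1 at 6 months is 5 reads in replicate 2.

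Endothelial genes did not pass at 9 over 3 months. Gpihbp1, the capillary protein that anchors lipoprotein lipase, had 236, 189.6, 71.5 and 154 CPM at 3 months, 67.0, 0, 38.3 and 17.3 CPM at 6 months, and 0, 22.6 and 15.4 CPM at 9 months (-3.17 ± 0.88 at 9 over 3 months, adjusted p = 0.0544, edgeR). Btnl9 had 0, 301.6 and 154 CPM at 9 months and 525, 942, 393 and 1025 CPM at 3 months (-1.87 ± 0.54, adjusted p = 0.0544). In both genes every library at 9 months was below every library at 3 months by observed CPM. The 0 reads in 9-month replicate 1 allow up to 510 CPM, above the lowest library at 3 months.

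Between 9 and 6 months the single gene called was Gdpd1, a glycerophosphodiester phosphodiesterase that acts on lysophospholipids. It was at 64.3, 171, 322 and 12.8 CPM at 3 months, 201, 0, 550.0 and 372.5 CPM at 6 months, and 0, 60.3 and 69.1 CPM at 9 months. Gdpd1 had no read in 6-month replicate 2 or 9-month replicate 1, which allow up to 619 and 510 CPM. By observed CPM its 9-month libraries were below 3 of the 4 at 6 months. Its fold change was -2.70 ± 0.64 at 9 over 6 months (log2, SE, adjusted p = 0.0388, edgeR) and 1.72 ± 0.52 at 6 over 3 months (adjusted p = 0.0490). Both calls were lost without any 1 of 3-month replicates 1, 2 and 4, 6-month replicates 3 and 4, and 9-month replicates 2 and 3, with adjusted p up to 0.629 and 0.51. The count of genes called was 0 without each of these libraries, 5 without 3-month replicate 3, 18 without 9-month replicate 1 and 22 without 6-month replicate 1 or 2.

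The next genes by p at 9 over 6 months did not pass. Gata3 was at -2.24 ± 0.59 (adjusted p = 0.0669, edgeR). By observed CPM its libraries at 9 months were all below those at 6 months, but 0 reads in 9-month replicate 1 allow up to 510 CPM. Kl and Tspan6 were at -1.98 ± 0.56 (adjusted p = 0.0772) and -1.91 ± 0.53 (adjusted p = 0.0723). Of the 4 parathyroid genes tested, 0 were called and 0 had a positive fold change, with a median of -1.62. In the other direction, Ddr2, a receptor tyrosine kinase for fibrillar collagen, was at 3.18 ± 0.85 (adjusted p = 0.0669). Vim, the intermediate filament vimentin of mesenchymal cells, was at 2.17 ± 0.59 (adjusted p = 0.0723, edgeR). It had 849.8, 453 and 492 CPM at 9 months, each above the 168, 413, 62.2 and 86.6 CPM at 6 months. The 413 CPM of 6-month replicate 2 is 2 reads, and 1 read in 9-month replicate 1 is worth 170.0 CPM. All 15 fibroblast genes tested had a positive fold change, which may partly reflect the filter on low counts, and 0 were called, where 0.07% of all genes were.

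**Figure D4:**
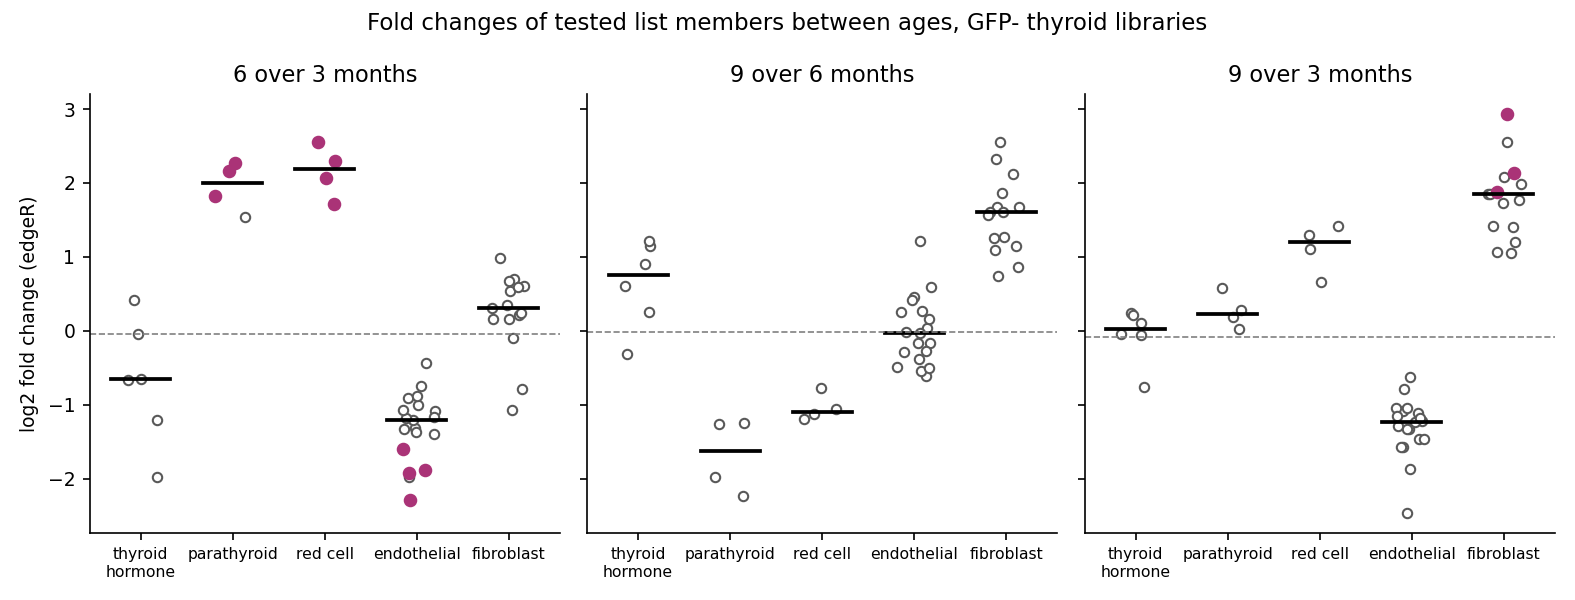
Fitted log2 fold changes of the tested genes of 5 lists in the 3 pairs of ages, later over earlier; each point is a gene, filled where the adjusted p is under 0.05, the black bar is the list's median and the dashed line the median of all genes tested. The parathyroid and red cell medians are 2.0 and 2.18 at 6 over 3 months, and the fibroblast median is 1.60 at 9 over 6 and 1.85 at 9 over 3 months.

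**Figure D5:**
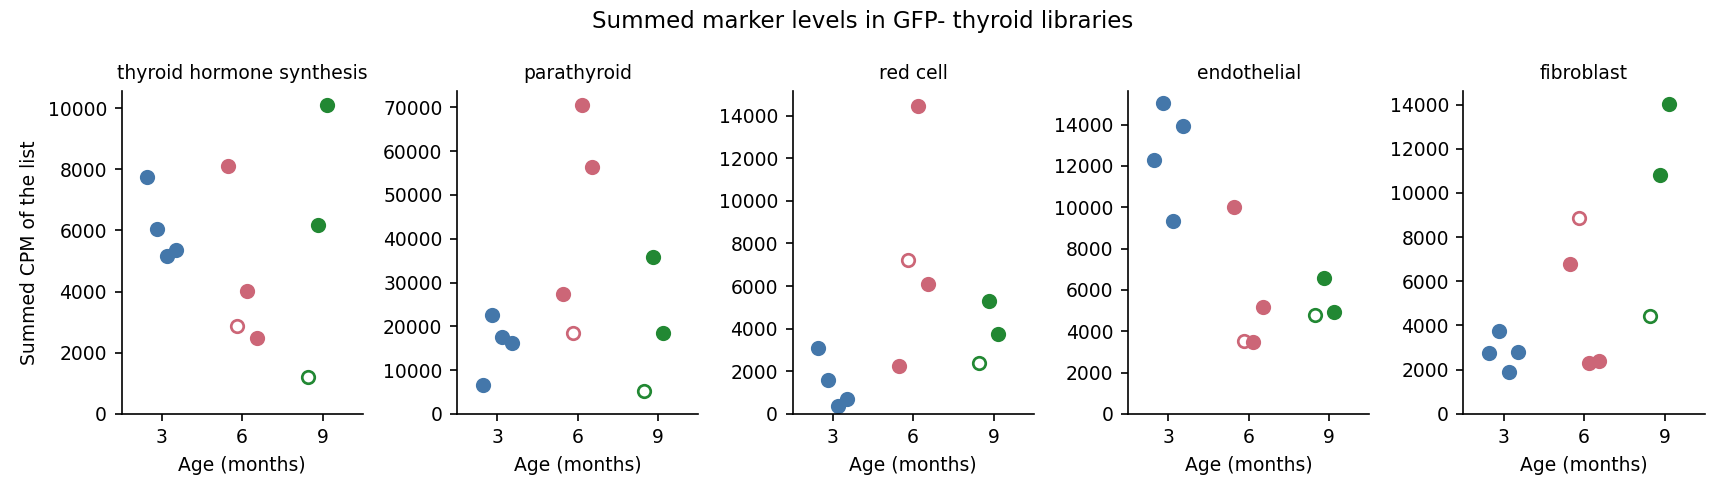
Summed CPM of the genes of 5 lists in each GFP- thyroid library by age in months; points are libraries, and open points are the 2 libraries under 10000 reads. The endothelial sum lies between 9333 and 15042 CPM at 3 months and at or under 6568 CPM at 9 months, and the fibroblast sum is 1895 to 3729.9 CPM at 3 months and 4419 to 14009 CPM at 9 months.

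Other lists gave few or no calls. Of the immediate early genes, which are known to rise when tissue is dissociated, 0 of 17 tested were called in any pair; Fos was at 1768 ± 742 CPM at 3 months (SD, n = 4), 1650.4 ± 455 CPM at 6 months (SD, n = 4) and 1089.7 ± 650.0 CPM at 9 months (SD, n = 3). None of 15 heat shock genes, 47 nuclear genes of oxidative phosphorylation, 69 cytosolic ribosomal protein genes, 7 mitochondrially encoded messenger RNAs, 3 proliferation genes or 3 cell cycle inhibitor genes was called in any pair. Of all genes tested, 2.1%, 0.07% and 0.49% were called at 6 over 3, 9 over 6 and 9 over 3 months. In lists of this size 0 calls is therefore near the share of all genes. Cdkn1a, the p53-induced inhibitor p21, had 168, 0, 239 and 147 CPM at 6 months. At 3 months it had 483, 569, 679 and 487 CPM, without overlap by observed CPM. Its 0 reads in 6-month replicate 2 allow up to 619 CPM, and the difference did not pass (-1.49 ± 0.50, adjusted p = 0.0824, edgeR). The mitochondrial share of reads in genes was 5.13 to 6.31% at 3 months, 3.21 to 6.28% at 6 months and, at 9 months, 2.67 to 4.67%, and its part in the results was not tested. Most immune markers were near 0. The macrophage list had 25, 1 and 3 reads at 3, 6 and 9 months, and the T and NK cell list 4, 7 and 19. The 10 granulocyte and mast cell genes had 0 reads at every age. The B and plasma cell list was higher, with 77, 29 and 92 reads, and Ebf1, its 1 gene tested, was not called in any pair.

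Whether the changes over age differed between GFP- and GFP+ thyroid cells was tested as an interaction in all 22 libraries. Of 1900 genes, 3 passed (0.158%): Myh11, Bpifa1 and Calml3. Myh11, the myosin heavy chain of smooth muscle, had 4, 2 and 25 reads at 3, 6 and 9 months in GFP- cells and 48, 36 and 4 in GFP+ cells (adjusted p = 0.000616, edgeR). Bpifa1, an airway secretory protein, had 13, 11 and 36 reads in GFP- cells and 51, 1 and 0 in GFP+ cells (adjusted p = 0.000233). Calml3, a calmodulin-like protein of stratified epithelium, had 47, 23 and 21 reads in GFP- cells and 11, 9 and 158 in GFP+ cells (adjusted p = 0.00210). Single libraries held most of the Bpifa1 reads, 32 of the 36 at 9 months in GFP- replicate 2 and 50 of the 51 at 3 months in GFP+ replicate 4, and 0 genes passed without GFP- 9-month replicate 2.

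None of the genes described as changed in GFP- cells passed that test. At 6 over 3 months, the log2 fold change in the 22-library fit was 3.85 in GFP+ cells for Gata3, with a difference of -1.67 (GFP- minus GFP+), and -0.99 in GFP+ cells for Pecam1, with a difference of -1.36. At 9 over 3 months it was 1.19 in GFP+ cells for Dcn, with a difference of 0.86, and 0.53 for Col6a2, with a difference of 2.32 (adjusted p = 0.774). The parathyroid list summed to 2589 to 6063, 11008 to 62896 and 8651 to 14268 CPM at 3, 6 and 9 months in the GFP+ libraries. A difference that does not pass does not show that the fractions changed alike.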

How the data were processed

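The deposited tables hold read counts per gene, 1 table per library, as the authors made them. Per the submitters' processing notes, bcl2fastq was used and the build was mm9; the aligner and the counting program are not given in the sources used here. Each table has 47643 gene rows, of which 47224 matched a symbol of GENCODE vM21 names, and 14423 had a read in the GFP- thyroid libraries. Rows that name no gene were left out throughout, holding 17.3 to 65.9% of a library's reads as no feature and at most 0.426% as ambiguous; ribosomal RNA rows, 29.7 to 55.4% of reads in genes, were kept. The 11 libraries entered 1 edgeR 4.0.16 fit (R 4.3.3) of 3 ages with TMM factors, filterByExpr defaults (minimum 10, total 15), robust quasi-likelihood tests and Benjamini-Hochberg adjustment at 0.05. It tested 1428 genes, with a biological coefficient of variation of 0.386 and 8 residual degrees of freedom. The age by fraction interaction used all 22 thyroid libraries (1900 genes). CPM are counts over a library's reads in genes, without TMM.

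The main results were refitted by DESeq2 1.42.0, with DESeq2's size factors in edgeR, by limma 3.58.1 voom with quality weights, without a filter on low counts, with at least 20 counts required in 50% of libraries, on all 22 libraries, on the compared ages alone, with a replicate block, without libraries under 10000 reads, without ribosomal RNA rows, and without each library in turn. The script was tested on simulated data. Named genes were, per pair of ages, up to 10 called genes with the highest and 10 with the lowest fold change at a mean log2 CPM of at least 4, leaving out predicted genes, pseudogenes and receptor or immunoglobulin segments, or the 10 with the smallest p where fewer than 10 were called; up to 10 by p over the 3 ages; called and abundant members of each list; and a set with Tg, Pth and Kdr. Gpihbp1, Vim, Ddr2 and Gsn entered by p. Members and lists were chosen with earlier results of these data known. Promoters are RefSeq windows of GRCm38.p6, a build other than that of the counts, and 70 of 98 named genes had one. Figures used matplotlib 3.10.9. Some items are not reported here.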

Additional observations from a re-analysis of the deposited data

Results flagged for a closer look

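Chance puts 1 of 4 equally precise values far from the other 3 in about 1 in 20 groups. These libraries differ in depth, so that rate does not apply to them. In 106 groups of 4 GFP- libraries, 11 had 1 library far from the other 3 (10.4%). 6-month replicate 2, the library of 4845 reads, stood apart in 5 of them: it held 0 CPM of Lrrn1 (the others 187 to 208), 1651 CPM of Adamts1 (8 reads, the others 243 to 301.7), 413 CPM of Myoc (2 reads), 1032 CPM of Serping1 (5 reads, the others 26.0 to 33.5) and 619 CPM of Calca (3 reads, the others 2554 to 2648). At 6 months, replicate 1 held the only read of Hpcal1 (33.5 CPM) and 4 reads of Tshr (134 CPM). 6-month replicate 3 held 76.5 CPM of Exoc3l2 (16 reads, the others 0) and 856 CPM of Hba-a1 (179 reads, the others 206 to 301.7). At 3 months, replicate 3 held 35.8 CPM of Cxcl1 (1 read, the others 165 to 172), and replicate 2 held the 7 reads of Tshr (42.8 CPM).

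The change over age differed between GFP- and GFP+ cells for Myh11 (adjusted p = 0.000616, edgeR), Bpifa1 (0.000233) and Calml3 (0.00210). Without GFP- 9-month replicate 2 the adjusted p was 0.109, 0.178 and 0.215. Without GFP+ 3-month replicate 4 that of Bpifa1 was 0.472, and that of Calml3 was 0.160 without GFP- 9-month replicate 3 and 0.928 without GFP+ 9-month replicate 1. By DESeq2 the adjusted p was 0.183, 0.626 and 0.494, and by limma voom that of Bpifa1 was 0.420 and that of Calml3 0.798. Calml3 was also lost with DESeq2's size factors (0.465), with no filter on low counts (0.501) and without libraries under 10000 reads (0.688).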

How the results depend on the processing

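The number of genes called moved with nearly every choice, while no fold change recomputed for a named gene turned its sign under these alternatives. In the order over the 3 ages, 6 over 3, 9 over 6 and 9 over 3 months, 53, 30, 1 and 7 genes were called. The counts were 82, 44, 22 and 21 with DESeq2's size factors; 20, 23, 0 and 1 by DESeq2 itself; 106, 49, 45 and 56 by limma voom with quality weights; 5, 2, 0 and 3 with no filter on low counts; 20, 13, 6 and 4 with the stricter filter; and 29, 3, 0 and 13 in the fit of all 22 libraries. Without libraries under 10000 reads they were 100, 65, 37 and 34, and without ribosomal RNA rows 55, 33, 6 and 16. With only the groups compared, the pairs gave 19, 0 and 26. By limma voom 19 were higher and 30 lower at 6 over 3 months, and by DESeq2 10 and 13. Of the calls described in that pair, limma voom lost Kl, Tspan6, Spp1, Fbxw7, Kdr and Irf1 besides the globin genes. DESeq2 lost Akr1c13, Lrrn1, Peg3, Slco3a1, Fbxw7, Arap3, S1pr1, Hpcal1, Gdpd1, Hba-a1 and Hba-a2. At 9 over 3 months DESeq2 lost all calls but Dcn, and limma voom lost Col1a2. Both lost Gdpd1 at 9 over 6 months. Leaving out 1 library gave 11 to 86, 4 to 47, 0 to 22 and 0 to 31. The interaction, at 3 genes, gave 8 with DESeq2's size factors, 0 by DESeq2, 0 with the stricter filter, 17 without libraries under 10000 reads, and 0 to 6 leaving out 1 library. The stricter filter left none of these 3 genes to be tested. The replicate numbers are shared between ages. Of 10 same-number pairs, 0 had a correlation of residuals over 0.1 (-0.058 to 0.035), and pairs of different number spanned -0.109 to 0.074. Counting error in libraries this shallow can hide a correlation, so this check could not decide whether the numbers pair the libraries. With the replicate block, 0 genes were called over the 3 ages and 0 in each pair, and 3 in the interaction, of which 2 were among the 3 without it; the adjusted p was 0.106 for Pecam1 at 6 over 3 months and 0.245 for Calml3 in the interaction. Where no other value is given, the cause was not tested. Depth limits genes with few reads: 0 reads allow 14.3 to 619 CPM per library.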

Other observations

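Some lists of cells that could adhere to the gland were too low for most of their genes to be tested, and are given as reads pooled over the libraries of an age. Skeletal muscle genes had 46 reads at 3 months, 158 at 6 months and 88 at 9 months (16 genes). Adipocyte genes had 324, 100 and 110 reads (12 genes), with the defining markers Adipoq, Plin1 and Cidec at 0 at every age. Lymphatic endothelial genes had 22, 18 and 36 reads (7 genes), with Mmrn1, Ccl21a and Reln at 0 at every age. Pericyte and smooth muscle genes summed to 465 to 1070.0 CPM, 310.9 to 1508 CPM and 722 to 1189.7 CPM per library at the 3 ages (12 genes), with Cnn1 at 0 at every age, and 0 of the 4 tested were called in any pair. At most 2.1% of all genes were called in a pair.

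Lists of growth factor signals held no call in any pair of ages, with 0 of 5 IGF genes and 0 of 5 TGF-beta and BMP genes called. Of the selenoprotein and antioxidant genes, 0 of 15 were called. These counts are near the share of all genes called, at most 2.1% in a pair. The 10 tested genes of non-fibrillar collagens and other matrix had a median log2 fold change of -0.89 at 6 over 3 months, 0.68 at 9 over 6 months and -0.21 at 9 over 3 months, and 0 were called.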
